A study of Drosophila melanogaster with 8 samples.

Results

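The cytochrome P450 genes of Drosophila melanogaster were followed in RNA from adult fly heads from lines with and without a neuronal knockdown of FBXO11. Members were the rows of the count table whose FlyBase identifier maps to a symbol made of Cyp and a digit, which held for 86 of 17676 genes. Of these, Cyp1 and Cyp40 are cyclophilins, protein-folding enzymes unrelated to P450s, and were set apart, which left 84 P450 genes including the pseudogenes Cyp6a15Psi and Cyp6t2Psi. P450 genes of ecdysone synthesis that the files list under their own names (phtm, dib, sad, shd, spo and spok) are outside this rule and are described with the pathway genes. The rule itself used gene names and no measured value, but it was set with earlier results of these data known.

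FBXO11 is an F-box protein, the subunit of a ubiquitin ligase that selects its targets. The knockdown group RNA1 held 3 libraries with the genotype FBXO11 KD1, and the knockdown group RNA2 held 2 libraries, 1 with the genotype FBXO11 KD2 and 1 with FBXO11 KD3. The control group held 3 libraries with the genotype FBXO11 WT. All 8 titles, those of the controls included, carry the words neuronal knockdown, and every library belonged to batch 1. The sources used here give no driver, strain, sex or exact age, so genetic background and knockdown cannot be told apart. Nothing shows that replicates came from separate groups of flies, so p-values reflect the spread among these libraries alone, part of which may be technical. The 2 RNA2 libraries were treated as replicates, so their spread also holds any difference between FBXO11 KD2 and FBXO11 KD3.

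P450s are heme-containing monooxygenases that insert an oxygen atom into lipid, hormone and foreign substrates. Those in the endoplasmic reticulum draw electrons from the reductase Cpr, and those in mitochondria draw them from the adrenodoxin reductase dare and a ferredoxin. Insect P450s fall into clans: CYP3 and CYP4 clan enzymes include many that act on insecticides, plant toxins and fatty acids, whereas several CYP2 and mitochondrial enzymes make or inactivate ecdysteroid hormones. In fly heads P450s are known from the fat body around the brain, from glia, from sensory organs and from the cuticle-forming epidermis. A head library averages over all of these cells, so fewer cells of a type and less RNA per cell cannot be told apart in any value below.

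Libraries held 32434805 to 41589222 counted reads. FBXO11 was at 39.7, 42.5 and 37.5 normalised read counts (CPM, counts scaled to a common library size) in RNA1 and at 44.8 and 52.7 CPM in RNA2, against 108.0, 102.9 and 97.4 CPM in control, so every knockdown library lay under every control. The RNA roX1, which coats the male X chromosome, was at 1334 to 1800 CPM in all libraries, and of the listed female-enriched genes the yolk proteins Yp1 and Yp2 stayed under 2 CPM, Yp3 was at 27.7 to 50.7 CPM and fit at 3.75 to 12.03 CPM.

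All 84 P450 genes had at least 1 count, and 78 passed the filter on low counts and were tested. They comprised 37 of the 39 genes of the CYP3 clan, 30 of the 32 of the CYP4 clan, 8 of the 9 mitochondrial genes and 3 of the 4 of the CYP2 clan. The 6 genes that did not pass were Cyp310a1, Cyp4ad1, Cyp316a1, Cyp303a1, Cyp6a18 and Cyp12d1-d, none with more than 49 counts over all libraries. Cyp303a1, which is needed for normal sensory bristles, had 15 counts in all, and Cyp12d1-d, a near-identical copy of Cyp12d1-p, had 1. No sequence of any member is given, since none was in the sources used here.

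P450 transcripts in the head were concentrated in a few genes. Levels between genes were compared as CPM per kilobase of annotated exon (CPM per kb), averaged over the 8 libraries. Only 3 genes exceeded 100 CPM per kb, another 31 lay between 10 and 100, 27 between 1 and 10, and 23 under 1. Cyp313a1 of the CYP4 clan stood first at 429 CPM per kb, followed by Cyp28d1 at 143 and Cyp6d5 at 107.5 CPM per kb. Cyp6g1 (87.3), Cyp6a20 (84.8), Cyp4d21 (82.8), Cyp9f2 (81.7), Cyp9b2 (63.3), Cyp4p1 (59.2) and Cyp4e3 (53.5 CPM per kb) completed the first 10. Of all P450 CPM, the gene with the most counts supplied 21.3%, the first 5 supplied 44% and the first 10 supplied 62.3%.

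Some of these abundant genes have known functions. Cyp6g1 confers resistance to DDT and imidacloprid when over-expressed, Cyp28d1 responds to nicotine, Cyp6d5 is induced by xenobiotics, Cyp6a20 affects male aggression, and Cyp4d21, also called sxe1, acts in the head fat body of males and affects courtship. Neighbours in the order from Cyp6g1 to Cyp9f2 differed in their 8-library means by less than the spread between libraries. Within groups, members at 1 CPM or more had a median coefficient of variation of 11.8% in RNA1, 12.3% in RNA2 and 11.6% in control.

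**Figure D1:**
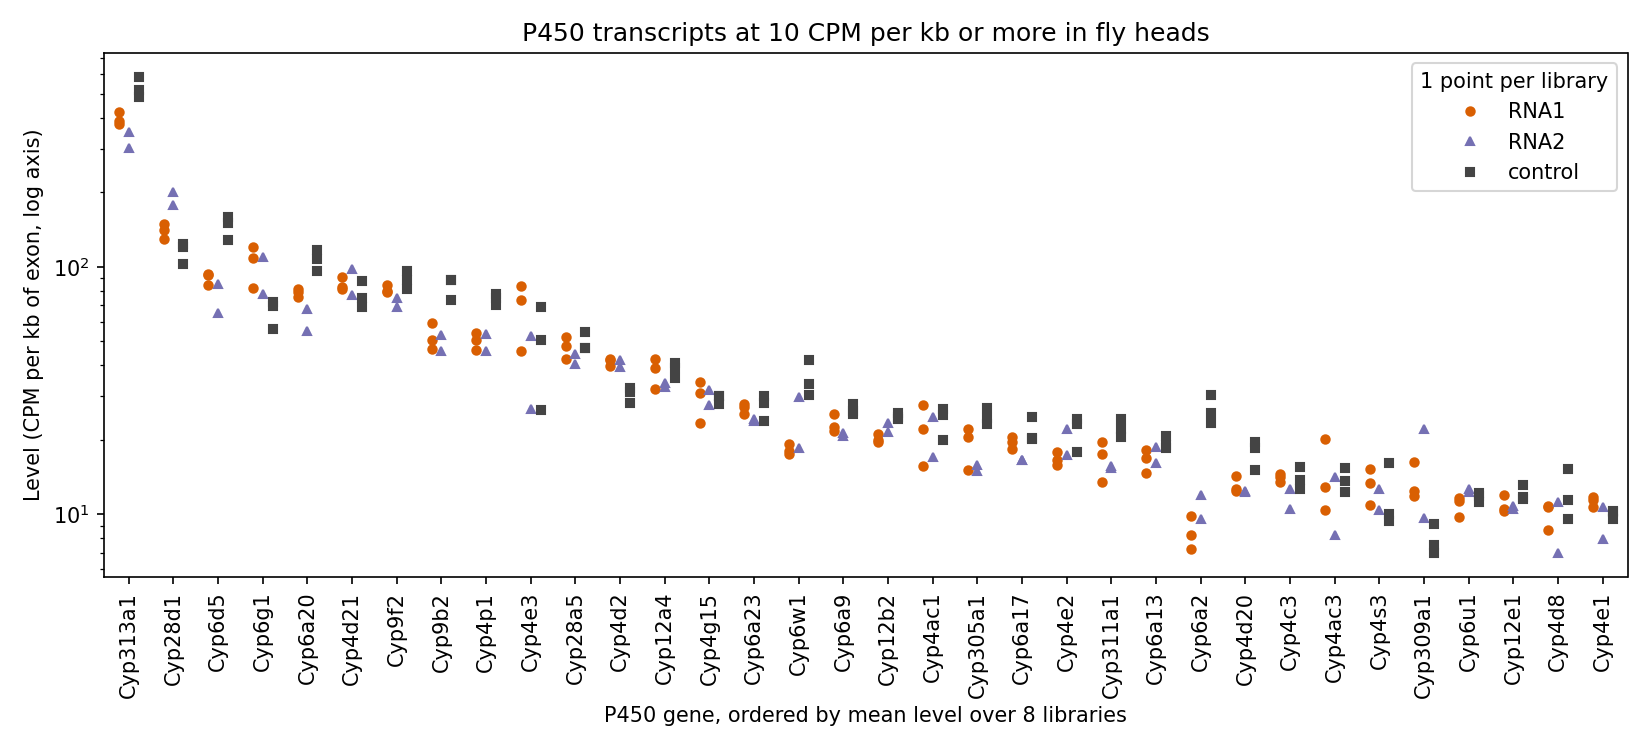
Level of each of the 34 P450 genes at 10 CPM per kb of exon or more, ordered by the mean over 8 libraries, on a log axis. Each point is 1 library, with RNA1 as circles, RNA2 as triangles and control as squares; Cyp313a1 stands apart from the rest, and its 5 knockdown libraries lie under its 3 controls.

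The summed P450 level averaged lower in both knockdowns than in control. Over all 84 genes it was 3018, 3192 and 3308 CPM in RNA1 and 2956 and 2936 CPM in RNA2, against 3285, 3779 and 3639 CPM in control. Both RNA2 libraries were under all controls, whereas the highest RNA1 library overlapped the lowest control. Without Cyp313a1 the sum averaged 2530 ± 126 CPM in RNA1 (SD, n = 3) and 2415 ± 70.4 CPM in RNA2 (n = 2), against 2708 ± 183 CPM in control (n = 3). A sum over chosen genes was not tested.

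By clan, the CYP4 clan summed to 1493 ± 74.2 CPM in RNA1 and 1301 ± 67.3 CPM in RNA2, against 1700 ± 144 CPM in control, and the CYP3 clan to 1480 ± 97.0, 1462 ± 78.5 and 1650 ± 132 CPM in the same order of groups (SD, n = 3, 2 and 3). Within the CYP4 clan, Cyp313a1 alone averaged 643 CPM in RNA1, 531 CPM in RNA2 and 860 CPM in control. The 22 genes of the Cyp4 family, which exclude Cyp313a1, summed to 814 CPM in RNA1, 734 CPM in RNA2 and 794 CPM in control. Their mean sum was thus not lower in RNA1 than in control. Mitochondrial P450s summed to 137.7, 155.4 and 157 CPM in RNA1 and 143.3 and 144.1 CPM in RNA2, against 148, 160.0 and 160.6 CPM in control. The small CYP2 clan stood at 49.3 ± 10.2 CPM in RNA1 and 39.9 ± 3.66 CPM in RNA2, against 61.2 ± 3.86 CPM in control. In the CYP2 clan all 5 knockdown libraries were under all 3 controls, in the CYP4 and mitochondrial clans both RNA2 libraries were, and in the CYP3 clan both knockdowns overlapped control. With library totals as scaling, the highest CYP2 sum of RNA1 was 57.56 CPM, against a lowest control of 56.05 CPM, and the highest mitochondrial sum of RNA2 was 146.4 CPM, against a lowest control of 145.8 CPM, so both of these separations ended.

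**Figure D2:**
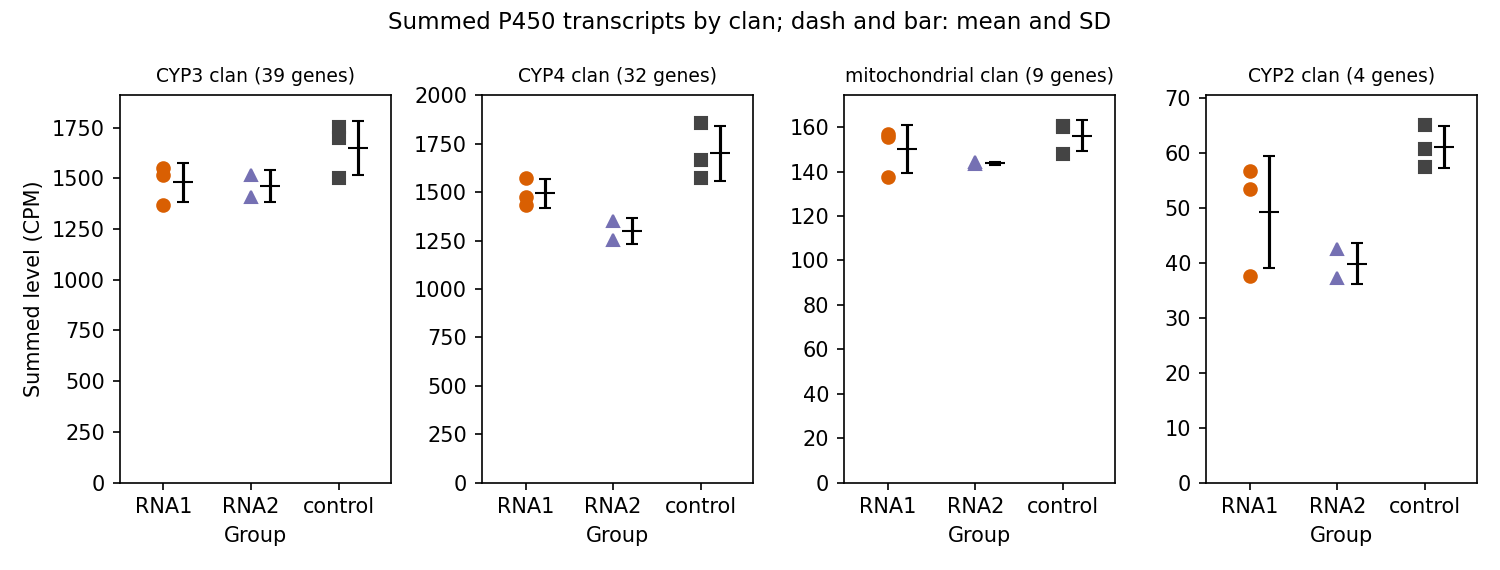
Summed CPM of the genes of each P450 clan, with 1 point per library and, beside the points, the mean (dash) and SD (bar) of each group; every axis starts at 0. The CYP4 clan sits at 1253 and 1349 CPM in RNA2 and at 1575 to 1857 CPM in control, and the mitochondrial clan overlaps between RNA1 and control, with both RNA2 libraries just under the lowest control.

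The comparison of each knockdown with control asks which transcripts differ when neurons have less FBXO11. Rose and fell are used where edgeR's quasi-likelihood test gave a false discovery rate (FDR, Benjamini-Hochberg over the 11081 genes tested) under 0.05. In RNA1, 13 of 78 P450 genes (16.7%) fell and 4 (5.13%) rose, where 5.25% of all genes fell and 5.01% rose. In RNA2, 12 of 78 (15.4%) fell and 3 (3.85%) rose, where 2.02% of all genes fell and 1.76% rose. In either direction 10.3% of all genes passed in RNA1 and 3.78% in RNA2. With library totals in place of trimmed-mean (TMM) scaling, the RNA1 split was 8 higher and 13 lower. Over all genes that scaling gave 733 higher and 487 lower in RNA1, where TMM gave 555 and 582. The count that fell in RNA1 was 6 without control 2 and 7 without control 3 or RNA1 2, and the count that rose was 1 without control 1, 2 without control 2, control 3 or RNA1 2, and 7 without either RNA2 library. The count that fell in RNA2 was 5 without RNA2 1, 6 without control 2 and 7 without control 3 or RNA2 2, and the count that rose was 1 without RNA2 1. Counts over all genes changed with the libraries as well. Without control 2, 243 of all genes fell in RNA1 and 97 in RNA2, where 582 and 224 fell with all libraries. Without control 1, 233 of all genes rose in RNA1, where 555 rose with all libraries. Both comparisons share the 3 controls, so a gene that fell in each is not 2 independent results. For single genes below, the left-out libraries that ended a call are listed, and calls that ended with the replicate number as a block are named in the last section.

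The median log2 fold change of the 78 genes was -0.03 in RNA1 and -0.19 in RNA2, beside 0.01 in each for all genes tested. In RNA1 the mean of the members was 0.04, opposite in sign to their median. Fitted values were below 0 for 51.3% of the members in RNA1 and 69.2% in RNA2, beside 48.6% and 48.2% of all genes. Every RNA1 library lay under every control for 26.9% of the members and above for 16.7%, beside 16.6% and 17% of all genes. Every RNA2 library lay under every control for 34.6% of the members and above for 17.9%, beside 18.5% and 20.4% of all genes.

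Of the 34 members at 10 CPM per kb or more, 12 (35.3%) passed in at least 1 knockdown, where 12.2% of all tested genes at that level did. At 1 to 10 CPM per kb it was 6 of 27 members (22.2%), beside 11.4% of all genes, and under 1 CPM per kb 3 of 17 tested members (17.6%), beside 5.05%. Over all levels, 10.9% of all tested genes passed in at least 1 knockdown. By clan, 7 of 37 CYP3 (18.9%), 5 of 30 CYP4 (16.7%) and 1 of 8 mitochondrial genes (12.5%) fell in RNA1, beside 16.7% of all members. In RNA2, 5 CYP3 (13.5%), 6 CYP4 (20%) and 1 of 3 CYP2 genes (33.3%) fell, beside 15.4% of all members. Genes that rose were 3 of the CYP3 clan (8.11%) and 1 of the CYP4 clan (3.33%) in RNA1, beside 5.13% of all members. In RNA2 they were 2 (5.41%) and 1 (3.33%) of the same clans, beside 3.85% of all members. Within the Cyp6 family, 6 of 23 tested genes fell and 1 rose in RNA1, and 4 fell in RNA2, where 0 rose by edgeR, DESeq2 or limma-voom (3 higher at an unadjusted edgeR p under 0.05). No mitochondrial member passed in RNA2 and no CYP2 member in RNA1 by edgeR, DESeq2 or limma-voom, with 0 and 2 members at an unadjusted edgeR p under 0.05. The P450 genes phtm and shd, outside the rule, are not counted here and are given with the pathway genes.

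**Figure D3:**
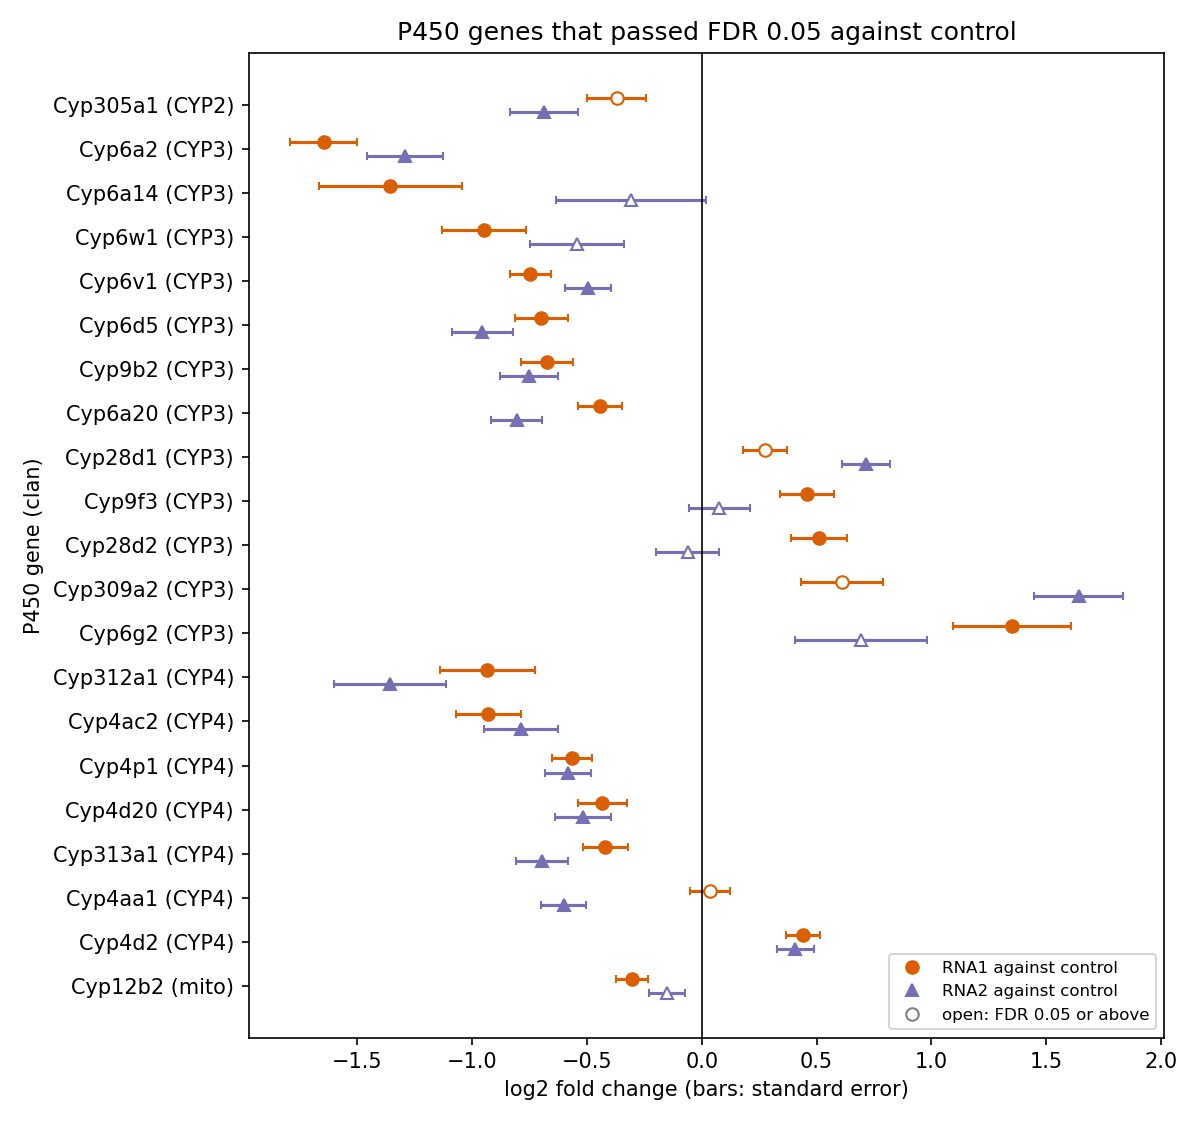
Log2 fold change (point) and standard error (bar) of the 21 P450 genes that passed FDR 0.05 in at least 1 knockdown, RNA1 as circles and RNA2 as triangles, filled where FDR was under 0.05. Cyp6a2 lies farthest to the left in RNA1 at -1.65 and Cyp309a2 farthest to the right in RNA2 at 1.64.

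Among genes of insecticide and xenobiotic response, Cyp6a2 and Cyp6d5 fell in both knockdowns. Cyp6a2 (2R:6779749-6781491, minus strand, BDGP6), a xenobiotic-inducible enzyme that metabolises DDT, was at 13.9, 12.1 and 16.6 CPM in RNA1 and at 20.1 and 16.1 CPM in RNA2, against 51.0, 43.0 and 39.2 CPM in control. Every knockdown library lay well under the lowest control. Its log2 fold change was -1.65 ± 0.15 (SE) in RNA1 (edgeR FDR 0.00032) and -1.29 ± 0.16 in RNA2 (FDR 0.00369), or 31.9% and 40.8% of the control level.

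Cyp6d5 (3R:14029228-14031483, plus strand) was at 138, 154 and 152 CPM in RNA1 and at 107 and 140.4 CPM in RNA2, against 212, 247 and 261 CPM in control. All 5 knockdown libraries lay well under the controls, and those of RNA1 were close to each other. It fell by 0.70 ± 0.11 on the log2 scale in RNA1 (edgeR FDR 0.00646) and by 0.95 ± 0.13 in RNA2 (FDR 0.005). The calls of Cyp6a2 and Cyp6d5 held in both knockdowns under all 16 alternative settings tried.

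Cyp6w1 (2R:6173684-6176195), linked to DDT resistance, was at 46.1, 43.1 and 42.1 CPM in RNA1 and at 71.5 and 44.4 CPM in RNA2, against 72.4, 100.3 and 80.8 CPM in control. The RNA1 libraries lay together under the controls, while the first RNA2 library lay just under the lowest control. It fell in RNA1 (log2 -0.95 ± 0.18, edgeR FDR 0.0167) and did not pass in RNA2 (-0.54 ± 0.20, FDR 0.207). The difference between RNA2 and RNA1 was 0.41 ± 0.20 and did not pass either (FDR 0.714). The RNA1 call ended when control 2, control 3 or any RNA1 library was left out, with edgeR FDR between 0.0501 and 0.0644.

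Other members of that list moved upwards or did not pass. Cyp28d1 (2L:5210460-5212445, overlapping CG7742 on the opposite strand) was at 209, 229 and 240.1 CPM in RNA1 and at 325 and 287 CPM in RNA2, against 166, 199.7 and 194 CPM in control. Its groups did not overlap, with RNA2 highest and RNA1 between RNA2 and control. It rose in RNA2 (log2 0.71 ± 0.10, edgeR FDR 0.00658; FDR 0.0664 without RNA2 1) and did not pass in RNA1 (0.28 ± 0.09, FDR 0.0963).

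Cyp6g1 was at 171, 251 and 225 CPM in RNA1 and at 228 and 162 CPM in RNA2, against 117, 144.5 and 150.4 CPM in control, so all knockdown libraries exceeded all controls. It did not pass in RNA1 (log2 0.65 ± 0.18, edgeR FDR 0.0588) or in RNA2 (0.51 ± 0.20, FDR 0.225). Cyp6g2, which can confer insecticide resistance when over-expressed, lies tail to tail with Cyp6g1 on the opposite strand and overlaps it. It was at 2.05, 3.45 and 2.98 CPM in RNA1 and at 2.03 and 1.53 CPM in RNA2, against 0.912, 1.215 and 1.181 CPM in control. Cyp6g2 rose in RNA1 (log2 1.35 ± 0.26, edgeR FDR 0.0118), and the call ended without control 1 or RNA1 2 (FDR 0.0502 and 0.0529). It stood at 0.69 ± 0.29 in RNA2 (FDR 0.236), a difference of -0.66 ± 0.28 between RNA2 and RNA1 that did not pass (FDR 0.633).

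The sources used here do not give the strand setting of the counting, so reads of the more abundant Cyp6g1 and those of Cyp6g2 cannot be told apart where they overlap. Cyp6a8, a xenobiotic-inducible gene, had log2 values of -0.52 ± 0.16 in RNA1 and -0.65 ± 0.19 in RNA2 (edgeR FDR 0.0766 and 0.0995), with all knockdown libraries under all controls. Cyp12a4, linked to lufenuron resistance, stood at -0.02 ± 0.10 and -0.21 ± 0.12. Cyp12d1-p (0.43 ± 0.31 and 0.72 ± 0.34) and Cyp6d2 (-0.36 ± 0.27 and -0.75 ± 0.31) did not pass. In all, 3 of the 10 tested genes of the list fell and 1 rose in RNA1, and 2 fell and 1 rose in RNA2. Among all tested P450 genes, 16.7% fell and 5.13% rose in RNA1, and 15.4% fell and 3.85% rose in RNA2. Of all genes, 5.25% fell and 5.01% rose in RNA1, and 2.02% fell and 1.76% rose in RNA2. With 10 genes in the list, a difference from the P450 shares rests on 1 or 2 genes.

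**Figure D4:**
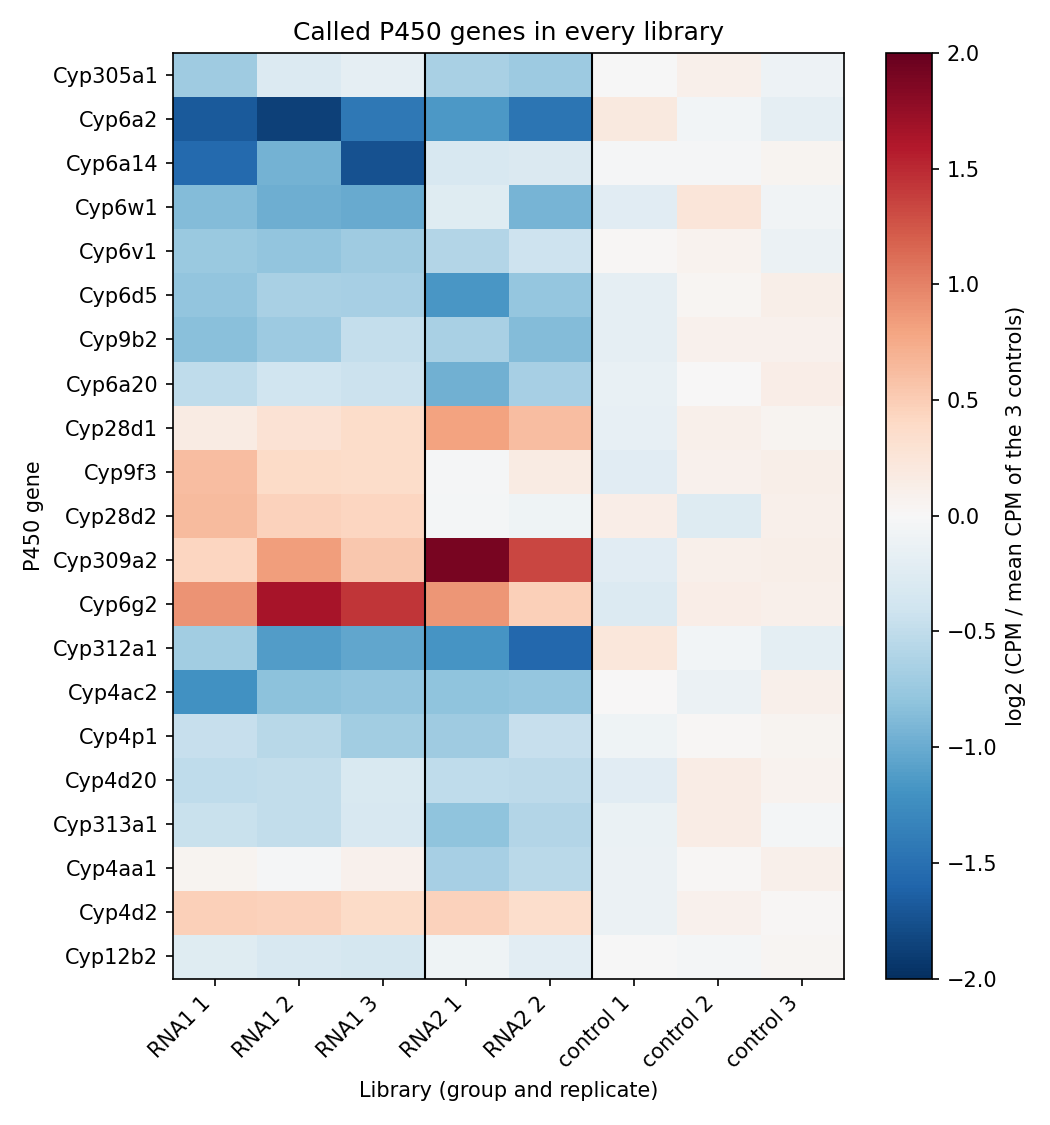
The 21 P450 genes called in at least 1 knockdown (rows) in every library (columns), coloured by log2 of the CPM over the mean of the 3 controls, from blue (lower) to red (higher). Cyp6a2 is dark blue in all 3 RNA1 libraries, Cyp4aa1 is pale in RNA1 and blue in both RNA2 libraries, and Cyp309a2 is darkest in the RNA2 libraries.

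P450 genes tied to behaviour included Cyp6a20, which fell in both knockdowns. Cyp6a20 (2R:14882118-14884046, plus strand) was at 136, 146 and 143 CPM in RNA1 and at 98.9 and 121 CPM in RNA2, against 173, 193 and 211 CPM in control. The groups formed 3 separate ranges, with RNA2 the lowest. It fell by 0.44 ± 0.10 on the log2 scale in RNA1 (edgeR FDR 0.0208) and by 0.81 ± 0.11 in RNA2 (FDR 0.00512). The difference between RNA2 and RNA1 was -0.36 ± 0.11 and did not pass (FDR 0.386). The RNA1 call ended without control 2, control 3, RNA1 1 or RNA1 2 (edgeR FDR 0.0561 to 0.0784), and the RNA2 call held under all 16 alternatives.

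Cyp4d21 was at 152, 166 and 148 CPM in RNA1 and at 179 and 140.7 CPM in RNA2, against 125, 136 and 159 CPM in control, and its groups overlapped. Its log2 values were 0.15 ± 0.11 and 0.19 ± 0.13 (edgeR FDR 0.444 and 0.46). Cyp6a17, which affects temperature preference, was at 31.8, 35.5 and 33.9 CPM in RNA1 and at 28.8 and 28.7 CPM in RNA2, against 34.9, 35.0 and 42.7 CPM in control. Both RNA2 libraries lay under all others, and it passed in neither knockdown (-0.16 ± 0.09, edgeR FDR 0.323, and -0.39 ± 0.11, FDR 0.0832). The sex-enriched gene sxe2, a lipase-like gene of the head fat body, fell in RNA1 (-1.12 ± 0.18, edgeR FDR 0.00819) and was at -0.91 ± 0.20 in RNA2 (FDR 0.0503). It is 1 of 4 listed male markers, of which 1 rose and 1 fell in RNA1. In RNA2 edgeR called 0 of these markers, and DESeq2 called 1 higher and 1 lower.

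The remaining CYP3 clan genes that fell in both knockdowns were Cyp9b2 and Cyp6v1, for which no function is stated here. Cyp9b2 (2R:7130277-7132139, minus strand) was at 78.0, 84.2 and 99.4 CPM in RNA1 and at 88.8 and 76.3 CPM in RNA2, against 122, 147 and 148 CPM in control. No knockdown library reached the lowest control. It fell by 0.67 ± 0.11 in RNA1 (edgeR FDR 0.00716) and by 0.75 ± 0.13 in RNA2 (FDR 0.0124) on the log2 scale. Its neighbour on the same strand, Cyp9b1, stood at -0.04 ± 0.16 and -0.10 ± 0.18.

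Cyp6v1 (X:20657122-20661425, overlapping the antisense gene asRNA:CR45466) was at 13.1, 12.7 and 13.4 CPM in RNA1 and at 14.6 and 16.5 CPM in RNA2, against 22.4, 23.2 and 20.3 CPM in control. The groups did not overlap, and RNA1 was lowest. It fell by 0.75 ± 0.09 in RNA1 (edgeR FDR 0.00138) and by 0.50 ± 0.10 in RNA2 (FDR 0.0258). In RNA1 the calls of both genes held under all 16 alternatives, whereas the RNA2 call of Cyp6v1 ended with the replicate number as a block and with only the 2 groups compared. In RNA2 the call of Cyp9b2 ended without control 2, control 3 or RNA2 2 (edgeR FDR 0.0503 to 0.057) and that of Cyp6v1 without control 1, control 2 or RNA2 1 (FDR 0.0905 to 0.232).

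In the CYP4 clan, 5 genes fell in both knockdowns, led in abundance by Cyp313a1. Cyp313a1 (3R:14521049-14523064, plus strand, overlapping no other gene) was at 631, 611 and 686 CPM in RNA1 and at 491 and 570.4 CPM in RNA2, against 788, 952 and 840.2 CPM in control. The groups formed separate ranges, with RNA2 lowest. It fell to 74.8% of the control level in RNA1 (log2 -0.42 ± 0.10, edgeR FDR 0.0271) and to 61.7% in RNA2 (-0.70 ± 0.11, FDR 0.00999). The RNA1 call ended without control 2, control 3, RNA1 1 or RNA1 2 (FDR 0.063 to 0.113), and the RNA2 call without RNA2 1 (FDR 0.103).

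Cyp4p1 (2R:9240041-9242139) was at 91.1, 85.0 and 77.3 CPM in RNA1 and at 76.5 and 90.3 CPM in RNA2, against 118, 126 and 130.3 CPM in control. The knockdowns covered nearly the same range, under control. It fell by 0.56 ± 0.09 in RNA1 (edgeR FDR 0.0052) and by 0.58 ± 0.10 in RNA2 (FDR 0.0125), while its neighbours Cyp4p2 (0.05 ± 0.23 and -0.11 ± 0.26) and Cyp4p3 (0.17 ± 0.16 and 0.33 ± 0.18) did not pass. The RNA1 call held in all settings, and the RNA2 call ended without control 2, control 3 or RNA2 1 (FDR 0.0564 to 0.126).

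Cyp4ac2 (2L:5266392-5268455), the middle gene of a row of 3, was at 3.78, 4.95 and 5.04 CPM in RNA1 and at 5.01 and 5.10 CPM in RNA2, against 8.81, 8.04 and 9.35 CPM in control. No knockdown library came near the controls. It fell to 52.5% of control in RNA1 (log2 -0.93 ± 0.14, edgeR FDR 0.00479) and to 58.0% in RNA2 (-0.79 ± 0.16, FDR 0.0284). Its flanking copies Cyp4ac1 (-0.14 ± 0.23 and -0.19 ± 0.26) and Cyp4ac3 (0.07 ± 0.28 and -0.30 ± 0.32) did not pass and had larger standard errors. The RNA2 call ended without any 1 of the controls or RNA2 libraries (FDR 0.0631 to 0.2).

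Cyp312a1 (3L:18128940-18132689) was at 2.26, 1.70 and 1.79 CPM in RNA1 and at 1.615 and 1.239 CPM in RNA2, against 4.28, 3.52 and 3.20 CPM in control. It had the largest fold changes of the CYP4 clan genes that passed, at log2 -0.93 ± 0.21 (edgeR FDR 0.0216) in RNA1 and -1.36 ± 0.24 (FDR 0.0157) in RNA2. Cyp4d20 (3L:2476259-2478448) was at 22.7, 23.0 and 26.0 CPM in RNA1 and at 22.6 and 22.5 CPM in RNA2, against 27.4, 35.5 and 33.7 CPM in control. It fell by 0.43 ± 0.11 in RNA1 (edgeR FDR 0.0328) and by 0.52 ± 0.12 in RNA2 (FDR 0.0488), close to the threshold, and knockdown libraries lay under all controls for both genes. The Cyp312a1 calls ended without control 1, control 2, RNA1 2 or RNA1 3 in RNA1 (FDR 0.0596 to 0.0932) and without control 1 or either RNA2 library in RNA2 (0.0573 to 0.0721). Those of Cyp4d20 ended without control 2, control 3, RNA1 1 or RNA1 2 in RNA1 (0.0788 to 0.125). In RNA2 the Cyp4d20 call ended in 11 of 16 alternatives. It did so without control 2, control 3, RNA1 2, RNA1 3 or either RNA2 library. The same held with library totals, a stricter filter, limma-voom, the replicate number as a block or only the 2 groups compared.

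Cyp4d2 was the member that rose in both knockdowns. Cyp4d2 (X:2176006-2178728, overlapping asRNA:CR44690 on the opposite strand) was at 105, 104 and 98.7 CPM in RNA1 and at 104 and 96.9 CPM in RNA2, against 69.8, 80.3 and 76.8 CPM in control. All knockdown libraries fell in a narrow range above the controls. It rose to 136% of control in RNA1 (log2 0.44 ± 0.07, edgeR FDR 0.00656, in all settings) and to 133% in RNA2 (0.41 ± 0.08, FDR 0.0225). The RNA2 call ended without control 1, control 3 or RNA2 1 (FDR 0.0765 to 0.198). Its neighbours Cyp4d14 (0.05 ± 0.20 and 0.30 ± 0.22) and Cyp4ae1 (-0.10 ± 0.10 and -0.001 ± 0.11) did not pass.

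Cyp309a2 had the largest rise of any member that passed. Cyp309a2 (2L:2564886-2573037, minus strand) was at 7.37, 9.79 and 7.99 CPM in RNA1 and at 20.4 and 13.8 CPM in RNA2, against 4.67, 5.86 and 5.93 CPM in control. The groups formed 3 separate ranges, with RNA2 highest and its 2 libraries far apart. It rose to 311.9% of control in RNA2 (log2 1.64 ± 0.19, edgeR FDR 0.0026, in all settings) and did not pass in RNA1 (0.61 ± 0.18, FDR 0.0598). The difference between RNA2 and RNA1 was 1.03 ± 0.19 and did not pass (FDR 0.0866). The adjacent Cyp309a1 had its 2 RNA2 libraries at 44.2 and 19.3 CPM and its RNA1 libraries at 23.7, 32.5 and 24.8 CPM, against 13.9, 18.3 and 15.1 CPM in control, all knockdown libraries being higher, and passed in neither (0.78 ± 0.30 and 1.01 ± 0.33, FDR 0.159 and 0.171).

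Some genes passed in 1 knockdown only by the threshold, and for these the knockdowns were compared directly. Cyp28d2, next to Cyp28d1, was at 15.5, 13.7 and 13.5 CPM in RNA1 and at 9.69 and 9.41 CPM in RNA2, against 10.9, 8.34 and 10.7 CPM in control. Only the RNA1 libraries stood above the controls, and it rose in RNA1 (log2 0.51 ± 0.12, edgeR FDR 0.028) and was at -0.06 ± 0.14 in RNA2. Between RNA2 and RNA1, Cyp28d2 differed by -0.57 ± 0.14 and Cyp28d1 by 0.44 ± 0.10, neither passing (FDR 0.206 and 0.204). The RNA1 call of Cyp28d2 ended without any 1 control, RNA1 1 or RNA1 2 (FDR 0.0538 to 0.0802).

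Cyp9f3 (3R:12396007-12398929) was at 26.7, 22.7 and 22.6 CPM in RNA1 and at 17.3 and 19.6 CPM in RNA2, against 14.9, 18.6 and 18.9 CPM in control. RNA1 lay above both other groups, which overlapped. It rose in RNA1 (log2 0.46 ± 0.12, edgeR FDR 0.0379) and was at 0.08 ± 0.13 in RNA2, a difference of -0.38 ± 0.13 that did not pass (FDR 0.494). The call ended without any 1 control or RNA1 library (FDR 0.055 to 0.125).

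Cyp12b2 was the mitochondrial member that fell, in RNA1. Cyp12b2 (2R:18754995-18757083) was at 37.7, 35.7 and 34.9 CPM in RNA1 and at 41.8 and 38.5 CPM in RNA2, against 44.3, 43.5 and 46.0 CPM in control. The groups formed separate ranges with RNA2 between RNA1 and control. It fell by 0.30 ± 0.07 in RNA1 (edgeR FDR 0.0261) and stood at -0.15 ± 0.08 in RNA2 (FDR 0.344), a difference of 0.15 ± 0.08 between RNA2 and RNA1 that did not pass (FDR 0.722). The call ended without any 1 control, RNA1 2 or RNA1 3 (FDR 0.0662 to 0.0909).

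Cyp6a14 (2R:8564187-8567202, overlapping a transposon insertion on the opposite strand) was at 0.346, 0.528 and 0.304 CPM in RNA1 and at 0.808 and 0.826 CPM in RNA2, against 0.991, 0.996 and 1.05 CPM in control. It was thus low throughout, and lowest in RNA1. It fell in RNA1 (log2 -1.36 ± 0.31, edgeR FDR 0.0245) and stood at -0.31 ± 0.33 in RNA2, with a difference of 1.05 ± 0.35 between RNA2 and RNA1 (FDR 0.453). The call ended without any 1 control, RNA1 1 or RNA1 3 (FDR 0.0571 to 0.0747).

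Cyp305a1 of the CYP2 clan (3L:19810403-19813339) was at 27.3, 37.0 and 39.8 CPM in RNA1 and at 28.6 and 27.0 CPM in RNA2, against 44.4, 48.3 and 41.8 CPM in control. All knockdown libraries lay under the controls, with the first RNA1 library at the level of RNA2. It fell in RNA2 (log2 -0.69 ± 0.15, edgeR FDR 0.0353) and did not pass in RNA1 (-0.37 ± 0.13, FDR 0.101), and RNA2 differed from RNA1 by -0.32 ± 0.15 (FDR 0.675). The call ended without any 1 control, RNA1 2 or either RNA2 library (FDR 0.0589 to 0.174).

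Comparing RNA2 with RNA1 asks whether the knockdowns differ from each other. Of the 78 P450 genes 1 (1.28%) was lower in RNA2 and 0 were higher, where 0.0902% of all genes were lower and 0.19% higher, 0.28% in all. At an unadjusted edgeR p under 0.05 the counts were 12 lower and 4 higher, DESeq2 called 3 lower and 2 higher, and limma-voom called 0 in either direction. Both RNA2 libraries lay under all RNA1 libraries for 25.6% of the members and above for 11.5%, beside 9.61% and 11.3% of all genes.

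The gene that passed was Cyp4aa1 (2R:15942864-15947266), which overlaps Strn-Mlck on the opposite strand. Cyp4aa1 was at 13.0 and 14.2 CPM in RNA2, against 21.4, 20.3 and 21.9 CPM in RNA1 and 19.0, 20.9 and 22.1 CPM in control. The RNA1 libraries lay within the range of the controls, and both RNA2 libraries lay under it. It was lower in RNA2 than in RNA1 by 0.64 ± 0.10 on the log2 scale (edgeR FDR 0.0406) and than in control by 0.60 ± 0.10 (FDR 0.011), and it stood at 0.04 ± 0.09 in RNA1 against control. The difference from RNA1 did not pass without any 1 of the 8 libraries (FDR 0.0671 to 0.375), and that from control did not pass without RNA2 1 (FDR 0.12).

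Members with hormone and cuticle roles did not pass. Cyp18a1, which inactivates ecdysteroids by 26-hydroxylation, was at 9.90, 15.7 and 15.98 CPM in RNA1 and at 12.8 and 9.74 CPM in RNA2, against 16.2, 16.4 and 15.5 CPM in control. Both RNA2 libraries were under the controls, and 1 RNA1 library was too, with log2 values of -0.21 ± 0.18 and -0.50 ± 0.20 (edgeR FDR 0.491 and 0.227). Cyp6t3, reported to act in ecdysteroid synthesis, was at 2.61, 1.42 and 2.19 CPM in RNA1 and at 0.975 and 1.062 CPM in RNA2, against 1.12, 1.14 and 0.866 CPM in control. RNA1 lay above the other groups but did not pass (0.99 ± 0.27, edgeR FDR 0.0506), and RNA2 stood at -0.04 ± 0.32. Cyp301a1, which acts in adult cuticle formation, stood at 0.43 ± 0.21 and 0.24 ± 0.24. By edgeR, DESeq2 or limma-voom, 0 of the 3 tested genes of these roles passed in either knockdown, except that DESeq2 called 1 hormone gene higher in RNA1, and 1 gene in each knockdown had an unadjusted edgeR p under 0.05.

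The CYP4G genes, whose enzymes act on very long chain lipids, differed in how steady they were. Cyp4g15, expressed in the nervous system, was at 61.6, 81.8 and 90.3 CPM in RNA1 and at 83.7 and 73.0 CPM in RNA2, against 73.9, 79.2 and 79.5 CPM in control, with a log2 value of 0.01 in each knockdown (SE 0.13 in RNA1 and 0.14 in RNA2). Cyp4g1, the oenocyte enzyme that makes cuticular hydrocarbons, was at 18.4, 7.70 and 3.797 CPM in RNA1 and at 0.334 and 0.649 CPM in RNA2, against 11.9, 0.0972 and 1.02 CPM in control. The controls ranged over all but the highest of the knockdown values, with a coefficient of variation of 151% in control and 75.8% in RNA1, and no comparison passed. Cyp4e3 also varied within groups, at 132, 82.4 and 152 CPM in RNA1 and at 48.1 and 94.6 CPM in RNA2, against 91.2, 125 and 47.8 CPM in control.

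Members at very low counts gave large fitted values that carry little weight. Cyp313a5 had 13, 12 and 5 counts in RNA1 and 1 and 1 in RNA2, against 1, 0 and 3 counts in control, so its fitted rise in RNA1 (edgeR FDR 0.0546) depends on a handful of reads and no fold is given. Cyp313a2 had 19, 11 and 4 counts in RNA1 and 3 and 0 in RNA2, against 3, 18 and 5 counts in control. Cyp304a1 had 12, 27 and 32 counts in RNA1 and 36 and 17 in RNA2, against 5, 17 and 6 counts in control, and passed in neither knockdown (edgeR FDR 0.134 and 0.194). The pseudogenes Cyp6a15Psi and Cyp6t2Psi were at about 1 CPM and passed in no comparison.

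P450 genes lie in tandem rows, and 45 of the 84 members fell into 16 clusters with gaps of at most 10000 bases. By chromosome arm, 34 members lie on 2R, 16 on 3R, 14 on 2L, 14 on X and 6 on 3L. Of the 32 tested genes on 2R, 7 fell and 1 rose in RNA1, and 5 fell in RNA2, where 16.7% and 15.4% of all 78 tested members fell. On 3L, 2 of 5 fell in RNA1 and 3 in RNA2. In each knockdown 2 of 15 fell on 3R, 1 of 12 on 2L and 1 of 14 on X. Genes that rose in RNA1 and RNA2 were 1 and 2 on 2L, 1 and 0 on 3R, 1 and 1 on X, and 0 on 3L. In no cluster did more than 1 member pass in the same direction in a knockdown. In some, neighbours nevertheless lay on the same side of control. Every RNA1 library exceeded every control for Cyp6g1, Cyp6g2 and Cyp6t3 (log2 0.65 to 1.35). Cyp6g1 and Cyp6g2 overlap, so their reads cannot be told apart there, and in RNA2 Cyp6t3 stood at -0.04 and overlapped control. Every library of both knockdowns exceeded every control for Cyp309a1 and Cyp309a2 (0.61 to 1.64). Singly, 17% of all genes did so in RNA1 and 20.4% in RNA2. In other rows neighbours differed in sign, as for the Cyp4p genes (-0.56 to 0.17 in RNA1).

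The largest cluster held 8 genes over 31.7 kb of 2R (14871366 to 14903095). In order they are Cyp6a22, Cyp6a17, Cyp6a23, Cyp6a19, Cyp6a9, Cyp6a20, Cyp6a8 and Cyp317a1. Their levels per kb spanned 410-fold, from 0.207 CPM per kb for Cyp6a19 to 84.8 CPM per kb for Cyp6a20. Only Cyp6a20 passed, in both knockdowns, although 6 of the 8 genes had log2 values below 0 in each. Cyp6a9 was at -0.19 ± 0.08 in RNA1 and -0.33 ± 0.09 in RNA2 (edgeR FDR 0.153 and 0.0808), with all knockdown libraries under all controls. Cyp6a22 at the other end was at 0.50 ± 0.15 and 0.49 ± 0.17 (FDR 0.0664 and 0.159), with all knockdown libraries above all controls. Cyp6a19, which overlaps Cyp6a9 on the opposite strand, was at 1.01, 0.473 and 0.486 CPM in RNA1 and 0.279 and 0.207 CPM in RNA2, against 0.235, 0.316 and 0.158 CPM in control, and did not pass (FDR 0.0765 in RNA1).

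**Figure D5:**
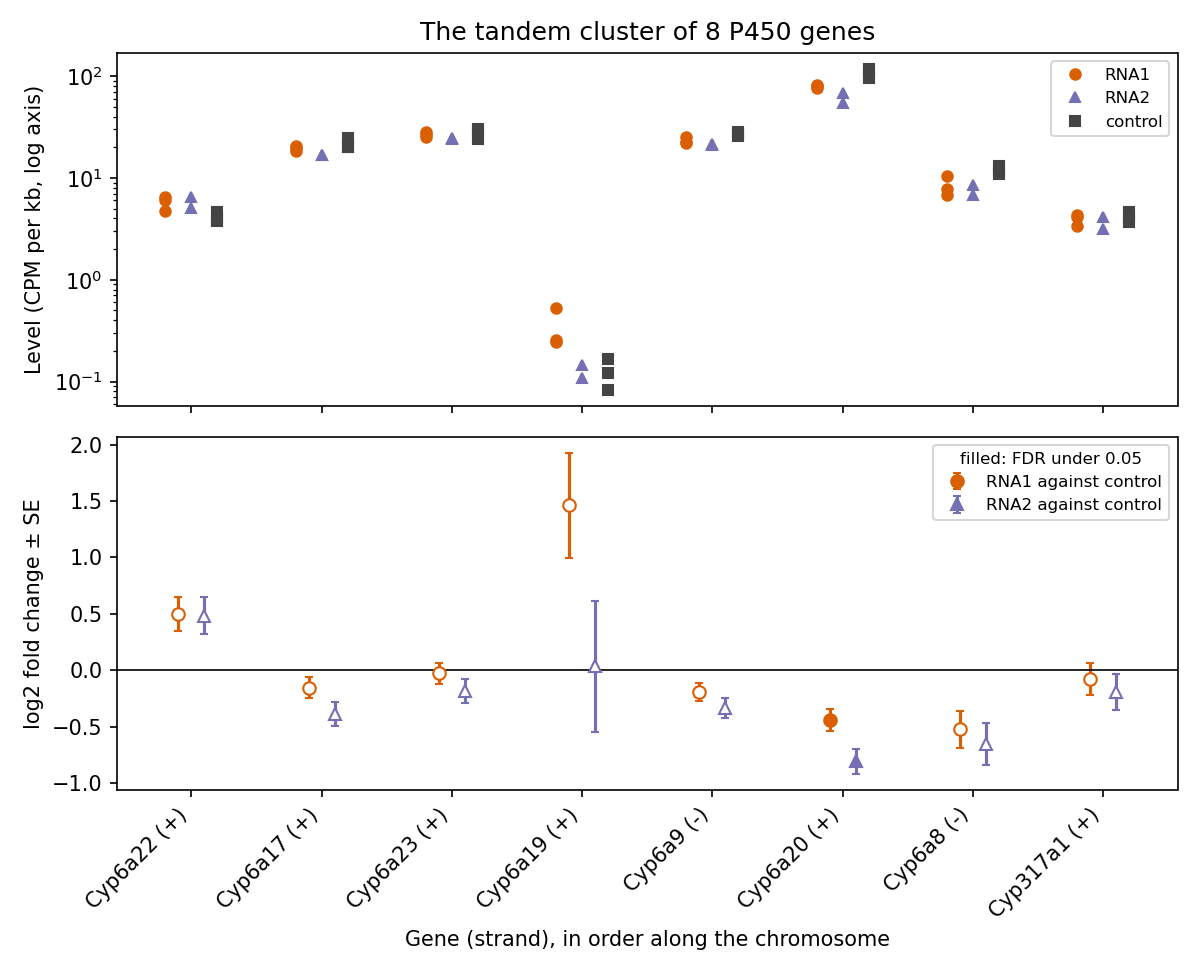
The 8 genes of the largest tandem cluster in chromosomal order, with strand, as CPM per kb of exon in each library on a log axis (top) and as log2 fold change with standard error against control (bottom; filled where FDR was under 0.05). Cyp6a20 holds the highest level and the only filled points, at -0.44 in RNA1 and -0.81 in RNA2.

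Of 6 redox partners, 0 passed in either knockdown by edgeR, DESeq2 or limma-voom, with 0 and 1 genes at an unadjusted edgeR p under 0.05. Cpr, the electron donor of the microsomal P450s, was at 228, 237 and 286 CPM in RNA1 and at 206 and 239 CPM in RNA2, against a mean of 289 ± 27.5 CPM in control (SD, n = 3; log2 -0.21 ± 0.11 and -0.38 ± 0.13, edgeR FDR 0.264 and 0.144), both RNA2 libraries lying under all controls. Of 8 genes of heme synthesis and breakdown, 0 passed by the same 3 tools, with 1 and 0 genes at an unadjusted edgeR p under 0.05.

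Some regulators and hormone genes passed in RNA1, where 10.3% of all genes passed in either direction. These lists were chosen with earlier results of these data known. Of 7 transcriptional regulators of P450 genes, maf-S, the partner of the stress regulator cnc, rose (log2 0.47 ± 0.08, edgeR FDR 0.00743), and Keap1, the inhibitor of cnc (-0.56 ± 0.11, FDR 0.014), and the nuclear receptor Hnf4 (-0.33 ± 0.07, FDR 0.0156) fell. In RNA2 they stood at 0.36 ± 0.09, -0.37 ± 0.12 and -0.22 ± 0.08, and 0 of 7 passed by edgeR (3 at an unadjusted p under 0.05; DESeq2 called 1 and limma-voom 0).

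Among 8 tested genes of ecdysteroid synthesis and reception, 2 P450 genes outside the rule (25%) fell in RNA1, beside 5.25% of all genes. The synthesis gene phtm was at 0.559, 0.334 and 0.516 CPM in RNA1 and at 0.613 and 0.384 CPM in RNA2, against 1.54, 1.04 and 1.71 CPM in control (log2 -1.60 ± 0.34 and -1.51 ± 0.39, edgeR FDR 0.0189 and 0.0716). The 20-hydroxylase shd was at 0.426, 1.11 and 1.43 CPM in RNA1 and at 0.836 and 1.062 CPM in RNA2, against 3.18, 2.48 and 2.34 CPM in control (-1.44 ± 0.37 and -1.49 ± 0.43, FDR 0.0396 and 0.0986). Both were low, with every knockdown library under every control, and DESeq2 called both lower in RNA2 as well.

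Of 6 juvenile hormone genes, the synthesis enzyme jhamt (log2 -1.45 ± 0.38, edgeR FDR 0.0406) and the epoxide hydrolase Jheh3 (-0.54 ± 0.12, FDR 0.0218) fell in RNA1. These 2 made up 33.3% of the list, beside 5.25% of all genes. Of 4 tested genes of hydrocarbon synthesis 0 passed by edgeR or limma-voom in either knockdown, with 1 and 2 at an unadjusted edgeR p under 0.05 and 1 called by DESeq2 in each. In RNA2, 0 of the 6 juvenile hormone genes passed by edgeR or limma-voom, with 1 at an unadjusted edgeR p under 0.05 and 1 called by DESeq2.

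Markers of head cell types also differed between groups beside these P450 values. For the counts of markers that passed, the shares of all genes were 5.01% higher and 5.25% lower in RNA1, and 1.76% and 2.02% in RNA2. Glial markers summed to 674 to 788 CPM in RNA1 and 623 to 706 CPM in RNA2, against 807 to 887 CPM in control, with 2 of 6 lower in each knockdown. Fat body markers summed to 2735 to 4183 CPM in RNA1 and 3163 to 4494 CPM in RNA2, against 2589 to 3122 CPM in control, with 3 of 8 higher and 1 lower in RNA1 and 2 higher and 1 lower in RNA2. Hemocyte markers summed to 258 to 366 CPM in RNA1 and 303.1 to 362 CPM in RNA2, against 231 to 256 CPM in control, with 4 and 2 of 5 higher. No marker of these 3 lists was at 0 in all libraries. Digestive markers summed to 194 to 392 CPM in RNA1 and 218 to 374 CPM in RNA2, against 99.5 to 130 CPM in control, with 3 and 2 of the 7 tested higher.

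Markers of Malpighian tubules, an organ rich in Cyp6 and Cyp12 transcripts that the head lacks, included Uro at 1 count over all libraries. The 4 listed tubule genes summed to 499 to 519 CPM in RNA1 and 500.2 to 554 CPM in RNA2, against 584 to 624 CPM in control, with 2 and 1 of the 3 tested lower. Neuronal markers summed to 3935 to 4871 CPM in RNA1 and 4292 to 4517 CPM in RNA2, against 4486 to 4930 CPM in control, with 0 of 5 passing by edgeR, DESeq2 or limma-voom (0 and 1 at an unadjusted edgeR p under 0.05). The part of cell composition in the P450 differences was not tested.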

How the data were processed

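Head RNA of adult flies (8 libraries) was purified with Trizol and a lipid tissue kit and prepared with a stranded mRNA kit, per the labels' protocols. The deposited values are unnormalised whole-number counts for each gene. The tools named by the authors, per the submitters' processing notes, are STAR 2.6.1, SAMtools 1.8, cutadapt 1.18, FastQC 0.11.8, bcl2fastq 2.17 and DESeq2 1.24.0, with the build BDGP6. What counted the reads, with which strand setting and annotation release, was not given in the sources used here. As a result, genes that overlap on opposite strands (20 members by at least 30 bases) and close copies such as the Cyp12d1 and Cyp4ac genes are uncertain. Symbols, coordinates and exon lengths were taken from Ensembl gene models of BDGP6, possibly of another release, and 17549 of 17676 identifiers were matched.

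Groups followed the titles. A single edgeR 4.0.16 model (R 4.3.3) covered all 8 libraries: filterByExpr (minimum count 10, minimum total 15), TMM scaling, glmQLFit with robust dispersion and glmQLFTest with a mean per group. Each knockdown was set against control, and RNA2 against RNA1, with two-sided tests and FDR by Benjamini-Hochberg over 11081 genes. The common biological coefficient of variation was 0.143. CPM are TMM-scaled, and SE was derived from the log2 fold change and the F statistic (size over root F). The procedure was tested on simulated data. Replicates of a group differed by more than sampling noise in every pair. Counting error of amplified reads is only a lower limit on the error of low counts.

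Named members are those with FDR under 0.05 in any comparison, the 10 highest in CPM per kb and those on role lists. Cpr's values, the other genes of the largest cluster, the copies beside called genes, and low-count genes were named after their values were seen. Clans followed CYP families, with Cyp311 to Cyp313, Cyp316 and Cyp318 in the CYP4 clan. Members and lists were chosen with earlier results of these data known. Same-numbered replicates showed no strong shared deviation, but groups this small cannot decide whether they were paired. Alternatives were other scalings, filters, DESeq2 1.42.0, limma-voom (limma 3.58.1), a replicate block, only the groups compared and leaving out each library. An alternative without overlapping genes and near copies was chosen after seeing the data. Promoter motifs and protein features were not examined. The listed genes nvd and FASN3, and the P450 gene Cyp6a21, were not analysed here. Marker lists for photoreceptors, muscle, oenocytes and female flies were also computed: 0 photoreceptor, oenocyte or female markers passed in either knockdown by edgeR (0, 0 and 1 at an unadjusted p under 0.05 in RNA1 and 0, 1 and 1 in RNA2; DESeq2 called 1 female marker in RNA1 and 1 oenocyte marker in RNA2, limma-voom none), and 1 of 5 muscle markers, Act88F, rose in each.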

Additional observations from a re-analysis of the deposited data

Results flagged for a closer look

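Cyp4aa1 was the P450 gene for which edgeR called a difference between the 2 knockdowns (1 lower and 0 higher in RNA2), where DESeq2 called 3 lower and 2 higher and limma-voom called 0. It was at 13.0 and 14.2 CPM in RNA2, against 21.4, 20.3 and 21.9 CPM in RNA1, with a log2 difference of -0.638 and an edgeR FDR of 0.0406. Against control the gene stood at -0.60 ± 0.10 in RNA2 and 0.04 ± 0.09 in RNA1 (SE). The call did not pass in 11 of 16 alternatives, among them limma-voom, the fit of only the 2 groups compared and each of the 8 left-out libraries, with FDR up to 0.375. The gene overlaps Strn-Mlck on the opposite strand, and the part of that overlap in the difference was not tested.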

How the results depend on the processing

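Of 33 calls of a member in a comparison, 11 passed under all 16 alternatives, 22 missed the threshold in at least 1, and 0 changed sign. The count of members higher in RNA1 (4 as reported) was 8 with library totals, 9 with DESeq2, 7 with only the 2 groups compared and 2 without overlapping genes and near copies. Lower in RNA1 (13) it ranged from 6 to 13 when single libraries were left out, and higher in RNA1 from 1 to 7. Higher in RNA2 (3) it was 5 with DESeq2 and 1 without overlapping genes and near copies, and 1 to 4 with a library left out. Lower in RNA2 (12) it was 18 with DESeq2 and 5 to 14 with a library left out. Over all genes DESeq2 called 353 higher and 549 lower in RNA2, where edgeR called 195 and 224, and in RNA2 against RNA1 66 higher and 81 lower, where edgeR called 21 and 10 (18 lower with no filter, 5 with only the 2 groups compared). For RNA2 against RNA1, higher (0) became 1 with no filter and 2 with DESeq2, and 0 to 1 with a library left out; lower (1) became 3 with DESeq2 and 0 with limma-voom, with only the 2 groups compared, without overlapping genes and near copies, and without any 1 library. The causes were not tested.

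Deviations of same-numbered libraries from their group means correlated at -0.282 to 0.246 over 7 pairs. With group means of only 2 or 3 libraries, these deviations depend on each other. The check therefore cannot decide whether the replicate numbers pair the libraries. With the replicate number as a block, 3 members were higher and 11 lower in RNA1, 2 higher and 7 lower in RNA2, and 0 lower in RNA2 against RNA1. The block ended the RNA1 calls of Cyp9f3, Cyp6w1, Cyp6a14 and Cyp12b2, and the RNA2 calls of Cyp4d20, Cyp305a1, Cyp4aa1, Cyp4d2, Cyp6v1 and Cyp4ac2. Over all genes the block gave 344 higher in RNA1, where 555 were called without it, 94 higher and 120 lower in RNA2, and 3 lower in RNA2 against RNA1. Without single libraries, all-gene counts were as low as 233 higher and 243 lower in RNA1, and 59 higher and 56 lower in RNA2.

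With the families after Cyp307 grouped beside Cyp6, Cyp9 and Cyp28 by number, that group summed to 2158 CPM in RNA1, 2026 CPM in RNA2 and 2554 CPM in control, and Cyp4 alone to 814, 734 and 794 CPM, because Cyp313a1 changes place. With library totals the mitochondrial sum in RNA2 was 145 CPM. Library totals moved the median log2 value of all genes by 0.04 in each knockdown. Genes under 1 CPM and groups of 2 libraries limit what could be detected.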
